A study of Mus musculus with 86 samples.

Results

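A set of 10 genes of sarcoplasmic reticulum calcium cycling was followed in mouse hearts through every probe set that the array's annotation assigned to their symbols. The genes were Atp2a2, Pln, Ryr2, Casq2, Slc8a1, Trdn, Asph, Srl, Jph2 and Camk2d, and 38 of the 45101 probe sets of the array carried one of these symbols. Of the 38, 34 passed a filter on dim probe sets and were tested, among 24885 tested probe sets. The 4 that did not pass were 1 probe set of Asph, 2 of Camk2d and 1 of Slc8a1, and their mean lay below the array median in all 8 groups. The nearest of these to the limit was Camk2d 1444031_at, with a highest group mean of −0.13 on the log2 scale, against 0.46 for Slc8a1 1420210_at, the dimmest that passed.

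Hearts came from 4 lines of mice, named FVB, C57BL/6, B2KO and B6129SF2/J, and each line was either infused for 14 days with the beta-adrenergic agonist isoproterenol at 120 µg/g/day or given no treatment. The labels do not explain the name B2KO further. They name no vehicle, and all groups shared the heart as source and total RNA as material. Of 86 arrays, 85 entered the comparisons, each counted as 1 heart, with 12 treated and 10 untreated FVB, 10 treated and 11 untreated C57BL/6, 10 treated and 10 untreated B2KO, and 12 treated and 10 untreated B6129SF2/J hearts. The labels' protocol names fewer mice than there are deposited arrays for at least FVB, C57BL/6 and B2KO. Some arrays of a group, in any line, may therefore share an animal, in which case the p-values are too small.

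With each heartbeat calcium leaves the sarcoplasmic reticulum through the ryanodine receptor, encoded by Ryr2, and is pumped back by the calcium ATPase SERCA2, encoded by Atp2a2. Phospholamban, the product of Pln, inhibits the pump until it is phosphorylated after beta-adrenergic stimulation, partly by the kinase whose delta subunit Camk2d encodes. Inside the reticulum calsequestrin (Casq2) buffers calcium and is tethered to the channel by triadin (Trdn) and by junctin, a product of the Asph locus, while sarcalumenin (Srl) is a further calcium-binding protein there. Junctophilin 2 (Jph2) holds the reticulum against the plasma membrane, and the sodium-calcium exchanger (Slc8a1) removes calcium from the cell.

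The promoter windows of Pln, Ryr2 and Casq2 are shown because these genes encode the pump's inhibitor, the release channel and the calcium store. Each runs from 250 bases before to 50 bases after the annotated start of the gene, in the RefSeq annotation of build GRCm38.p6, read 5′ to 3′ on the gene's own strand. RefSeq windows were at hand for 6 of the 10 genes. Capitals mark the letters of an E-box (CANNTG) or of a MEF2 motif, found on either strand without overlap.

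Pln promoter window, chr10:53337436-53337735, plus strand: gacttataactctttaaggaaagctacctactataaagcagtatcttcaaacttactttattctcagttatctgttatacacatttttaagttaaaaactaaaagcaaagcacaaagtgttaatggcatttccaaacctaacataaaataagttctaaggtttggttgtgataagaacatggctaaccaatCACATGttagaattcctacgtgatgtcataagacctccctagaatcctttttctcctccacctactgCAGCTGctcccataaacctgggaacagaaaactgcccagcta

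Ryr2 promoter window, chr13:12106896-12107195, minus strand: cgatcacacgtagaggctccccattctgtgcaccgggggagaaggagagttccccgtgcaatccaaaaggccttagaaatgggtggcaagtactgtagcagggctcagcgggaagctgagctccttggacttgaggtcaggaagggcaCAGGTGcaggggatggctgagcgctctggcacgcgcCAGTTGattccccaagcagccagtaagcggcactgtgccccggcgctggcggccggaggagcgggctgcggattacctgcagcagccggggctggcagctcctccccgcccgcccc

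Casq2 promoter window, chr3:102086165-102086464, plus strand: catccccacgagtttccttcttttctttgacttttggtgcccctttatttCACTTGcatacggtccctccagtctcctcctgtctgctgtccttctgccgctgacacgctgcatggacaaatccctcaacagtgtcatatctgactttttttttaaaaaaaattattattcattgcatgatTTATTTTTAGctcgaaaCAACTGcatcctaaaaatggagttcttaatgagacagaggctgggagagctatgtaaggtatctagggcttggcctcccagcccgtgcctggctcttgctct

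Pln held an E-box 59 bases before its start and another 8 bases after it. Ryr2 held E-boxes 102 and 66 bases before its start. Casq2 held E-boxes 200 and 52 bases before its start and a MEF2 match 69 bases before it. E-box letters were found in 72.3% of all 32851 windows and MEF2 letters in 3.19%. The cyclic AMP response half-site TGACG, present in 20.8% of all windows, the M-CAT letters CATTCC (14.7%) and the CArG box (1.63%) were not found in the windows of any of the 6 genes.

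Levels are log2 of the deposited intensity, read as linear values. Each array's deposited values had a median of 1, so that a level of 0 is the array median. The submitters' notes state neither the scale nor how this median came about, and every level and change rests on that reading. A change is the treated mean minus the untreated mean of the same line, given ± SE from a linear fit with limma over all arrays, and it passed the test at an adjusted p under 0.05. Levels of different probe sets cannot be set against each other. In whole hearts, fewer cells of a type and less RNA per cell cannot be told apart.

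The 10 cardiac myocyte markers read were all above the array median in every group. Of the arrays, 8 stood apart. Treated B2KO replicate 10, called the failed array here, correlated with the others at a median of 0.573. Over 200 strain marker probe sets, treated FVB replicate 2 lay a root mean square distance of 2.89 log2 units from its own background and 1.00 from C57BL/6, the nearer one. Treated B2KO replicate 7 lay 1.63 from its own and 1.81 from the nearest other. In 5 others the 3′ control signal of Gapdh exceeded the 5′ signal by 2.06 to 7.43 log2 units: replicate 7 of treated B6129SF2/J, and the untreated replicates 11 of C57BL/6, 8 of B2KO, 8 of B6129SF2/J and 10 of FVB. Tests without the failed array, and without all 8, are given beside many of the results below whose call or direction they change. Counts of members that passed in such fits are given too, without naming every probe set.

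With all 85 arrays, Trdn, which encodes triadin, was the only one of the 10 genes with a probe set that passed the test as lower in all 4 lines. This probe set, 1426143_at, passed the test in each line, lower by 1.41 to 1.57 on the log2 scale. In B2KO it no longer passed without the failed array, as given below. The mean change over the 4 lines was −1.49 ± 0.17, which left 0.356 of the untreated signal (adjusted p = 8.65e-11). With all 85 arrays no other member probe set passed the test in more than 1 line. Without the failed array Asph 1425274_at did so in FVB and B6129SF2/J, and Trdn 1426144_x_at in C57BL/6 and B6129SF2/J.

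In FVB hearts 1426143_at had a lowest, median and highest level of −0.16, 1.43 and 4.31 in treated animals, against 1.46, 3.15 and 4.02 in untreated animals. In this line 11 of 12 treated hearts were below the untreated mean, and the 1 above it was replicate 2, at 4.31, an array in doubt by its strain markers. The change was −1.51 ± 0.33 (adjusted p = 0.00536), and −1.76 when this one, the failed array and treated B2KO replicate 7 were left out (adjusted p = 3.26e-05). Fitted on FVB arrays alone it was as large, with an adjusted p of 0.0628.

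In C57BL/6 hearts the same probe set had levels of 0.90, 2.67 and 3.38 in treated animals, against 3.04, 4.38 and 4.95 in untreated animals. The groups overlapped slightly, and all 10 treated hearts were below the untreated mean. The change was −1.57 ± 0.34 (adjusted p = 0.000397).

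In B6129SF2/J hearts it had levels of 1.92, 2.47 and 3.04 in treated animals, against 3.19, 3.91 and 4.59 in untreated animals. The groups did not overlap, which held for 0.876% of all tested probe sets in this line and for 1 of the 34 members. The change was −1.41 ± 0.33 (adjusted p = 0.00401).

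In B2KO hearts it had levels of −0.20, 1.87 and 3.04 in treated animals, against 2.40, 2.91 and 5.00 in untreated animals. Each of the 10 treated hearts was below the untreated mean, and the lowest and the highest of these values belonged to the failed array and to untreated replicate 8. The change was −1.46 ± 0.35 (adjusted p = 0.0231). Leaving out untreated replicate 8, treated replicate 2 or treated replicate 10 alone ended the call, with an adjusted p of up to 0.104. The change was −1.25 without the failed array (adjusted p = 0.104) and −1.19 without all 8 arrays that stood apart (adjusted p = 0.0519). Fitted on B2KO arrays alone it was as large with an adjusted p of 0.587, and with arrays centred on their tested probe sets it was −1.23 (adjusted p = 0.0547). The direction was kept in each of these.

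**Figure D1:**
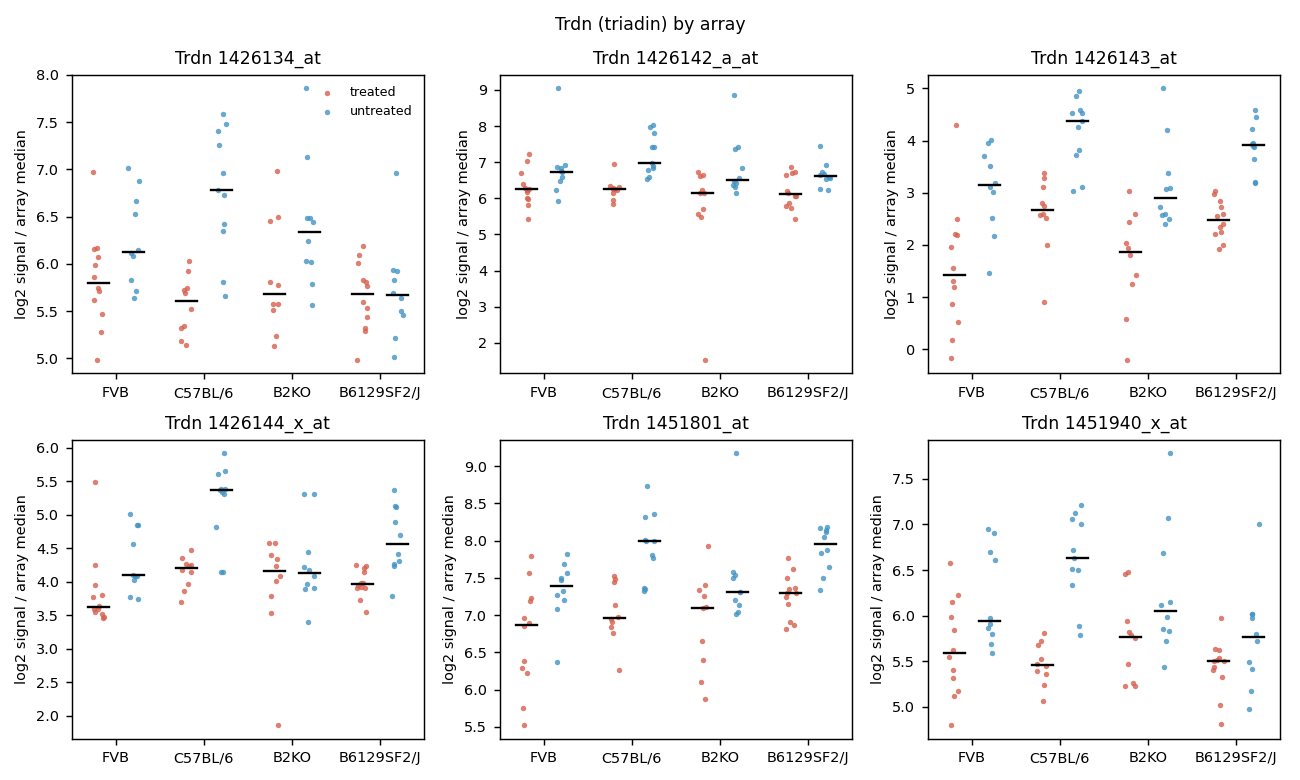
Levels of the 6 Trdn probe sets, as log2 signal over the array median, in treated (red) and untreated (blue) hearts of each line, with 1 point per array and a bar at the group median. For 1426143_at the treated median lies below the untreated median in every line, and in B6129SF2/J the treated levels end at 3.04 where the untreated levels begin at 3.19.

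All 6 Trdn probe sets gave a negative change in all 4 lines. In C57BL/6 hearts all 6 fell, by 0.88 to 1.57 on the log2 scale (adjusted p from 8.59e-05 to 0.0232). In the mean over the 4 lines all 6 fell as well, by 0.56 to 1.49 (adjusted p from 8.65e-11 to 0.000213). In FVB, B2KO and B6129SF2/J hearts 1426143_at was the one Trdn probe set to pass with all 85 arrays. Without the 8 arrays that stood apart 1451801_at also fell in FVB, by 0.66, and in B6129SF2/J, by 0.63 (adjusted p = 0.0363 and 0.031), and 1426144_x_at fell in B6129SF2/J by 0.63 (adjusted p = 0.0191).

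The brightest Trdn probe set, 1451801_at, had levels of 6.27, 6.96 and 7.53 in treated C57BL/6 hearts, against 7.33, 7.99 and 8.73 in untreated ones. All 10 treated hearts were below the untreated mean, and the change was −0.88 ± 0.22 (adjusted p = 0.00241). The changes of this probe set were −0.61 ± 0.22 in FVB, −0.57 ± 0.23 in B2KO and −0.62 ± 0.22 in B6129SF2/J (adjusted p = 0.2, 0.172 and 0.0848). Their 95% confidence intervals, −1.04 to −0.17, −1.02 to −0.11 and −1.06 to −0.18, lay below 0, although with all 85 arrays none passed after adjustment over all probe sets.

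The Trdn probe sets read together across arrays. Within groups, over 84 arrays without the failed one, their pairwise Pearson correlations ran from 0.42 to 0.87, given as a description, since the arrays share depth and RNA quality and the probe sets may share sequence. One of the 6, 1426134_at, differed between lines in its change: it was −0.06 ± 0.23 in B6129SF2/J and −1.20 ± 0.23 in C57BL/6, a difference of 1.14 ± 0.33 (adjusted p = 0.0147).

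The median change of the 10 cardiac myocyte markers was 0.52 in C57BL/6, −0.004 in FVB, −0.42 in B2KO and −0.23 in B6129SF2/J. Over all tested probe sets the medians were 0.08, −0.01, −0.23 and −0.01. The B2KO values include the failed array. None of these markers passed as lower in any line. In C57BL/6 their summed linear signal had a lowest, median and highest value of 13700, 18450 and 20660 in treated hearts, against 9454, 12350 and 22070 in untreated hearts. The 1 marker that passed there, Tnni3, rose by 0.57 ± 0.21 (adjusted p = 0.0391). In C57BL/6 hearts 4 of 8 fibroblast markers rose, with a median change of 0.83 over the list, as did 4 of 6 endothelial markers (median 1.03) and 2 of 6 smooth muscle and pericyte markers (0.71). Fibroblast markers rose in FVB and in B6129SF2/J as well, 2 of 8 in each (median changes 0.78 and 0.88), and 1 of 6 smooth muscle and pericyte markers rose in B6129SF2/J. In B2KO no marker of these 3 lists passed. The fibroblast sum had a median of 1740 in treated C57BL/6 hearts, against 859.9 in untreated ones. Of 5 skeletal muscle markers, 4 had means below the array median in every group. Their summed signal, carried by Acta1, had a median of 140.2 in treated FVB hearts, against 546.5 in untreated ones. The medians were 196.8 in treated against 282.5 in untreated C57BL/6 hearts, 213.1 against 379.9 for B2KO, and 244.8 against 410.8 for B6129SF2/J. The part of cell composition in the Trdn result was not tested.

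**Figure D2:**
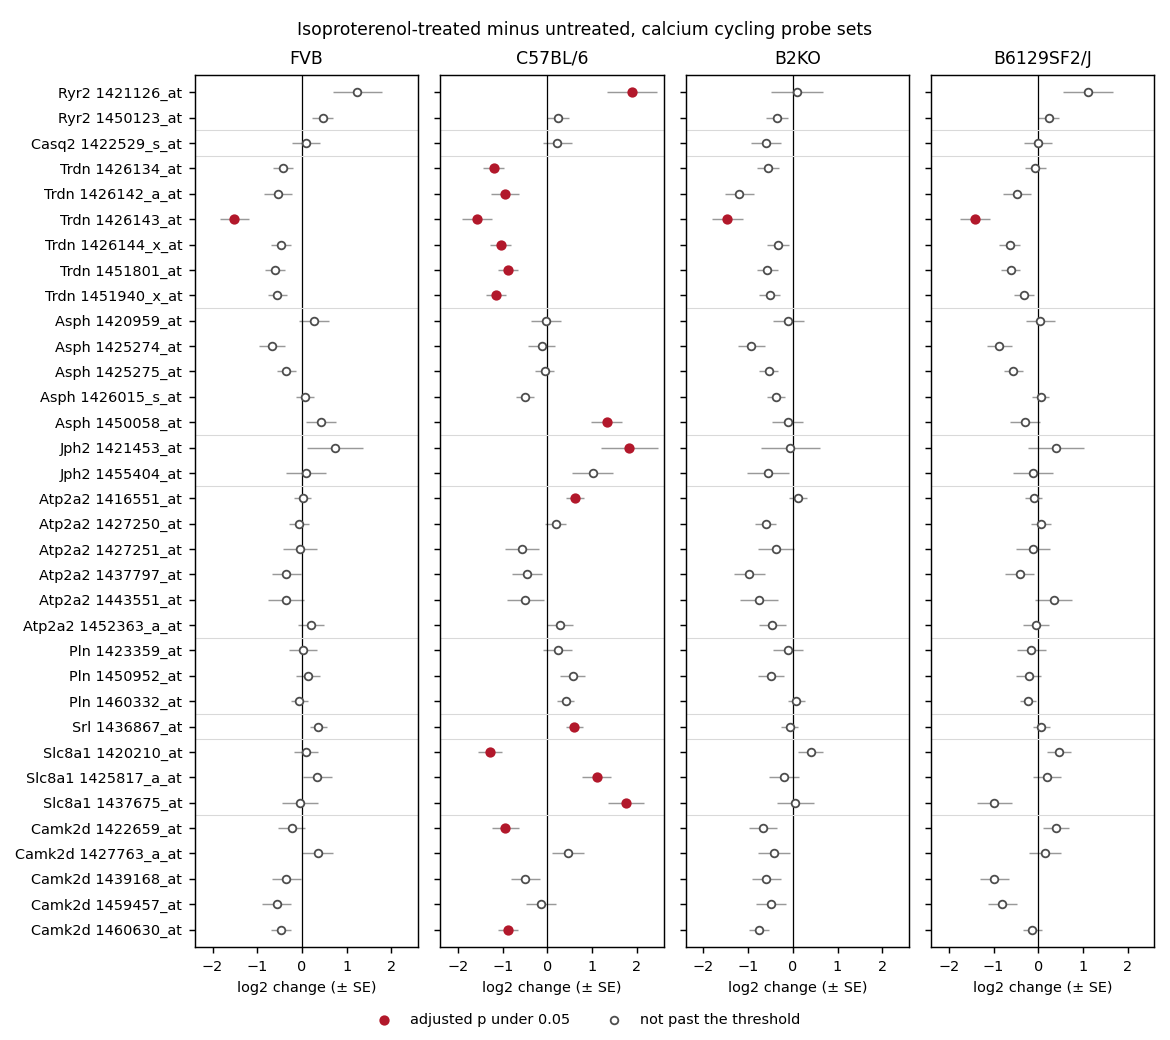
Change after isoproterenol (treated minus untreated log2 level, points with bars of ± 1 SE) for the 34 tested probe sets in each line, filled where the adjusted p was under 0.05. In the fit over 85 arrays filled points number 16 in C57BL/6 and 1 in each of the other lines, and the Trdn probe set 1426143_at is filled in all 4.

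With all 85 arrays, member genes other than Trdn passed the test within a line in C57BL/6 hearts alone. That did not hold in other fits for FVB and B6129SF2/J, and tests of the differences between lines are given further on. In that line 16 of 34 member probe sets passed the test, 7 higher and 9 lower, or 47.1%, against 23.2% of all tested probe sets (13.3% higher and 9.89% lower). Leaving aside the 6 Trdn probe sets, 10 of 28 passed. Over all members the median change in C57BL/6 was −0.05, against 0.08 over all tested probe sets. Of all calls in this line 57.3% were higher, 43% after quantile normalization and 37.2% with arrays centred on their tested probe sets, which gave medians over all tested probe sets of −0.03 and −0.10. Under those scalings 6 of 16 and 5 of 15 member calls were higher.

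In each of the other lines 1 of 34 member probe sets passed, or 2.94%, counts that moved with the arrays and scaling used. In B6129SF2/J 4 fell without the failed array, against 7.99% of all tested probe sets, and 5 without the 8 arrays, against 2310 of 24905. Besides Trdn these were Asph 1425274_at and Camk2d 1439168_at. Fitted alone that line had 10 of 33, 1 higher and 9 lower, of which 7 were outside Trdn, against 23.3% of all its tested probe sets. In FVB the count was 2 without the failed array, with Asph 1425274_at, against 546 of 24878 tested probe sets, and 0 with the line alone. In B2KO it was 0 without the failed array, against 56 of 24878, and 0 with the line alone. It was up to 4 there when a single array was left out (4 without treated replicate 5), with no share over all tested probe sets beside it. With all 85 arrays the share of all tested probe sets was 1.14% in FVB, 0.848% in B2KO and 5.06% in B6129SF2/J. At an unadjusted p under 0.05, with all 85 arrays, the members numbered 7 in FVB, 11 in B2KO and 9 in B6129SF2/J. The share of all tested probe sets at that unadjusted threshold was not counted, so these numbers have no background beside them. The median change of members was −0.04 in FVB, −0.47 in B2KO and −0.12 in B6129SF2/J, against −0.01, −0.23 and −0.01 over all tested probe sets. Without the failed array the B2KO medians were −0.10 for members and −0.06 for all tested probe sets. The higher share of all calls was 54.9% in FVB and 6.16% in B2KO, and 36.3% and 26.9% with arrays centred on their tested probe sets.

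The pump gene Atp2a2 was read by 6 probe sets that did not move together. The brightest, 1416551_at, had levels of 10.41, 10.94 and 11.18 in treated C57BL/6 hearts, against 9.76, 10.11 and 11.26 in untreated ones. All 10 treated hearts were above the untreated mean, with overlap at the top of the untreated group. The rise was 0.62 ± 0.20, or 1.54 times (adjusted p = 0.0156), and was 0.45 with an adjusted p of 0.196 when each array was centred on its tested probe sets, which ended the call. After quantile normalization the rise was 0.23 (adjusted p = 0.0298).

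In the other lines the change of 1416551_at was 0.01 ± 0.20 in FVB, 0.12 ± 0.20 in B2KO and −0.10 ± 0.20 in B6129SF2/J. The 95% confidence intervals were −0.38 to 0.40, −0.28 to 0.53 and −0.49 to 0.29. Without the failed array, whose level was 12.43, the B2KO change was −0.06. The next brightest probe set, 1452363_a_at, was not called in any line, and its change in C57BL/6 was 0.28 ± 0.29.

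Of the dimmer Atp2a2 probe sets, 1427251_at, 1437797_at and 1443551_at pointed the other way in C57BL/6 hearts. With all arrays none of them passed in any line. At 1427251_at the change was negative in all 4 lines, from −0.57 in C57BL/6 to −0.04 in FVB. All 10 treated C57BL/6 hearts were below the untreated mean there. At 1443551_at it was negative in 3 lines and ran from −0.75 to 0.34. The remaining one, 1427250_at, was negative in 2 lines, from −0.61 to 0.18. For 1437797_at the change was negative in all 4 lines, from −0.97 in B2KO to −0.35 in FVB. Its mean over the lines fell by 0.55 ± 0.17 (adjusted p = 0.0131). In B2KO hearts the levels of 1437797_at were 1.25, 4.70 and 5.77 in treated animals, against 3.59, 5.60 and 6.44 in untreated animals. The level of 1.25 was that of the failed array, which the B2KO change includes, and the next treated level was 3.89. Across arrays within groups, 1416551_at correlated with 1452363_a_at at r = 0.71 and with 1437797_at at −0.09, over 84 arrays, as a description.

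Pln, the inhibitor of that pump, passed the test at none of its 3 probe sets in any line or in the mean with all 85 arrays. The brightest, 1460332_at, had levels of 9.83, 10.47 and 10.95 in treated C57BL/6 hearts, against 9.64, 9.88 and 10.91 in untreated ones. Here 9 of 10 treated hearts were above the untreated mean, within a wide overlap. The change was 0.40 ± 0.19 with a 95% confidence interval of 0.04 to 0.77 (adjusted p = 0.103), and the mean over the 4 lines was 0.05 with an interval of −0.14 to 0.23. Without the 8 arrays that stood apart it rose in C57BL/6 by 0.48 (adjusted p = 0.0266). Pln 1450952_at rose there by 0.56 without the failed array (adjusted p = 0.0158), against an adjusted p of 0.135 with it.

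The log2 difference between Pln 1460332_at and Atp2a2 1416551_at within each array compares these probe sets without the array's scale. It averaged −0.44 ± 0.16 in treated and −0.22 ± 0.18 in untreated C57BL/6 hearts (SD, n = 10 and 11), a shift of −0.22. The shift was −0.07 in FVB, −0.05 in B2KO and −0.13 in B6129SF2/J, and is given as a description with no test. In B2KO it was 0.04 without the failed array and 0.02 after quantile normalization, so its sign is not settled. The shift also depended on the Atp2a2 probe set chosen: with 1437797_at it was 0.85 in C57BL/6.

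Ryr2, the release channel, gave one reading that changed and one that did not. Its brightest probe set, 1450123_at, had levels of 8.86, 9.51 and 9.82 in treated C57BL/6 hearts, against 8.62, 9.30 and 10.09 in untreated ones, and did not pass in any line. Its mean change over the lines was 0.14 ± 0.12, with a 95% confidence interval of −0.09 to 0.38. Without the 8 arrays that stood apart this mean rose by 0.25 (adjusted p = 0.0457).

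The dimmer Ryr2 probe set, 1421126_at, had levels of 2.25, 4.87 and 5.65 in treated C57BL/6 hearts, against −1.57, 2.93 and 3.82 in untreated ones. In this line 9 of 10 treated hearts were above the untreated mean. The rise was 1.89 ± 0.56 (adjusted p = 0.00962), and the mean over the 4 lines rose by 1.08 ± 0.28 (adjusted p = 0.0032). With all 85 arrays it was the 1 member probe set that rose in that mean.

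The lowest untreated values of 1421126_at in FVB, C57BL/6 and B2KO hearts, −0.51, −1.57 and −0.86, belonged to arrays with a large Gapdh 3′ to 5′ difference. Without the 8 arrays that stood apart the rise in C57BL/6 was 1.47 (adjusted p = 0.00395) and the mean over the lines was 0.87 (adjusted p = 0.00112). The correlation of both Ryr2 probe sets within groups was r = 0.13 over 84 arrays.

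Casq2, the calcium store, was read by 1 probe set, 1422529_s_at, which did not pass in any line. Its levels were 8.49, 9.18 and 9.73 in treated C57BL/6 hearts, against 8.22, 8.91 and 9.64 in untreated ones. In B6129SF2/J hearts they were 8.43, 9.04 and 9.59 in treated animals, against 8.65, 9.02 and 9.48 in untreated animals. The groups overlapped almost wholly in both lines, and the mean change over the 4 lines was −0.08 with a 95% confidence interval of −0.39 to 0.24. Without the failed array, at 2.66, the mean was 0.07 (adjusted p = 0.589), and the B2KO change was −0.01, against −0.60 with it.

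**Figure D3:**
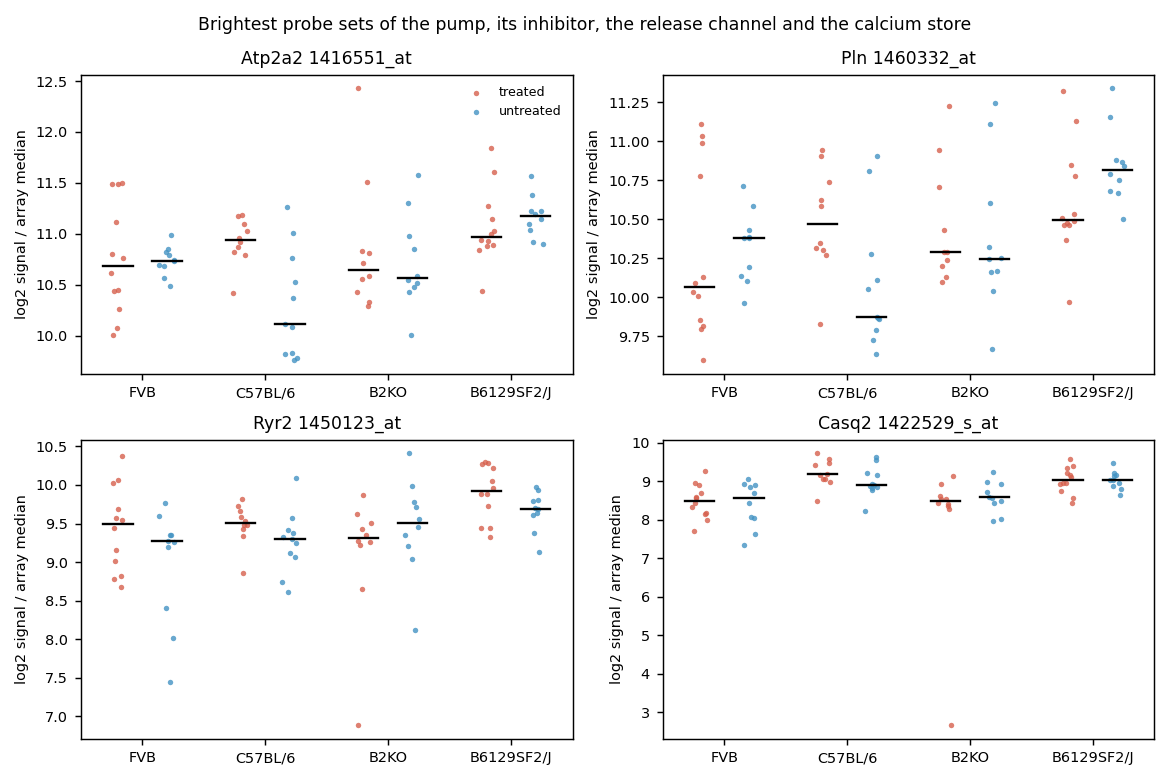
Levels of the brightest probe sets of Atp2a2, Pln, Ryr2 and Casq2, as log2 signal over the array median, in treated (red) and untreated (blue) hearts of each line, with 1 point per array and a bar at the group median. The C57BL/6 medians for Atp2a2 are 10.94 in treated and 10.11 in untreated hearts, and treated B2KO replicate 10 is the far point at 12.43 for Atp2a2 and at 2.66 for Casq2.

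The Asph locus makes junctin, junctate and an aspartyl hydroxylase, and the annotation does not say which product a probe set reads. Of its 5 tested probe sets, 1425274_at had levels of 5.07, 5.38 and 5.81 in treated B6129SF2/J hearts, against 5.81, 6.21 and 6.72 in untreated ones. All 12 treated hearts were below the untreated mean, and the change of −0.87 ± 0.29 missed the threshold (adjusted p = 0.0607), which it passed without the failed array (adjusted p = 0.00157). In FVB it then fell by 0.67 (adjusted p = 0.0444). Its mean over the 4 lines fell by 0.65 ± 0.15 (adjusted p = 0.000669), and that of 1425275_at fell by 0.38 ± 0.11 (adjusted p = 0.0073). Both correlated within groups at r = 0.65 over 84 arrays.

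Asph 1450058_at rose in C57BL/6 hearts instead. Its levels were 2.21, 2.79 and 3.43 in treated hearts, against −1.43, 1.71 and 2.89 in untreated ones. Each of the 10 treated hearts was above the untreated mean, and the rise was 1.32 ± 0.34 (adjusted p = 0.00274).

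Srl, read by 1436867_at, had levels of 8.17, 9.39 and 9.71 in treated C57BL/6 hearts, against 7.56, 8.79 and 9.24 in untreated ones. Here 9 of 10 treated hearts were above the untreated mean, and the rise was 0.60 ± 0.19 (adjusted p = 0.0154). With arrays centred on their tested probe sets the rise was 0.42 and no longer passed (adjusted p = 0.0789). Over the 4 lines the mean change was 0.24 with a 95% confidence interval of 0.05 to 0.43 (adjusted p = 0.0609).

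Jph2 1421453_at had levels of 3.71, 4.67 and 5.05 in treated C57BL/6 hearts, against −0.18, 2.44 and 4.79 in untreated ones. The treated hearts lay in a narrow band at the top of the wide untreated range. The rise was 1.83 ± 0.64 (adjusted p = 0.0279), and was 1.68 with an adjusted p of 0.0557 after quantile normalization. Without untreated replicate 11, the array with the lowest of these values, the adjusted p was 0.0717. The brighter Jph2 probe set, 1455404_at, had a change of 1.01 ± 0.46 and did not pass (adjusted p = 0.0977), but did without the failed array (adjusted p = 0.0222).

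Camk2d 1422659_at was lower in every treated than in any untreated C57BL/6 heart. Its levels were 3.95, 4.55 and 5.15 in treated hearts, against 5.18, 5.50 and 5.82 in untreated hearts, a separation that 0.936% of all tested probe sets and 1 of the 34 members showed in this line. The change was −0.94 ± 0.31 (adjusted p = 0.0179). In B6129SF2/J hearts the change was 0.40 ± 0.30, and the difference of 1.34 ± 0.43 between the lines passed the test (adjusted p = 0.0307). Without untreated B6129SF2/J replicate 4 or replicate 7 it did not, with an adjusted p of up to 0.0587.

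A dim Camk2d probe set, 1460630_at, fell in C57BL/6 hearts by 0.89 ± 0.22 (adjusted p = 0.00198), with levels of −0.78, 0.71 and 1.45 in treated hearts, against 0.86, 1.57 and 1.93 in untreated ones. The mean over the 4 lines fell at 3 of the 5 tested Camk2d probe sets: 1439168_at by 0.60 ± 0.16, 1459457_at by 0.50 ± 0.17 and 1460630_at by 0.56 ± 0.11 (adjusted p = 0.00447, 0.0229 and 8.85e-05). These 3 were among the dimmest members tested, with highest group means of 1.71 for 1460630_at and 2.43 for 1459457_at. Their pairwise correlations within groups were −0.22 to 0.49 over 84 arrays.

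In that mean over the 4 lines 13 of 34 member probe sets passed, 1 higher and 12 lower, or 38.2%, against 20% of all tested probe sets (7.73% higher and 12.3% lower). They were 6 of Trdn, 3 of Camk2d, 2 of Asph, 1 of Atp2a2 and 1 of Ryr2. Pln, Casq2, Srl, Jph2 and Slc8a1 had none with all 85 arrays, and without the failed array Jph2 1421453_at and Slc8a1 1425817_a_at rose by 0.82 and 0.43 (adjusted p = 0.0418 and 0.0303). The median change of members was −0.10, against −0.05 over all tested probe sets. Without the 8 arrays that stood apart 18 members passed in the mean, 3 higher and 15 lower, against 6385 of 24905 tested probe sets.

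The exchanger gene Slc8a1 was read in opposite directions within C57BL/6 hearts, and all 3 of its tested probe sets passed. The brightest, 1437675_at, had levels of 1.92, 3.33 and 4.24 in treated hearts, against −0.35, 1.33 and 3.61 in untreated ones, a rise of 1.76 ± 0.40 (adjusted p = 0.000752). Probe set 1425817_a_at rose by 1.11 ± 0.33 (adjusted p = 0.00895). All 10 treated hearts were above the untreated mean at both.

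The third, 1420210_at, had levels of −1.41, −0.84 and 0.00 in treated C57BL/6 hearts, against −1.29, 0.44 and 2.17 in untreated ones. All 10 treated hearts were below the untreated mean, and the fall was 1.28 ± 0.27 on the log2 scale (adjusted p = 0.00021). It was the tested member closest to the filter, with a highest group mean of 0.46, near the array median. The pairwise correlations of the 3 probe sets within groups were −0.18 to 0.18 over 84 arrays.

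The Slc8a1 response of C57BL/6 hearts differed from that of at least 1 other line at 2 probe sets. For 1437675_at the change was −0.98 ± 0.39 in B6129SF2/J, 0.06 ± 0.41 in B2KO and −0.05 ± 0.39 in FVB. The difference from C57BL/6 was −2.74 ± 0.56 for B6129SF2/J (adjusted p = 0.000459) and −1.70 ± 0.58 for B2KO (adjusted p = 0.0419), and the B2KO call was lost when any of 21 arrays was left out, with an adjusted p of 0.111 and a difference of −1.32 without the failed array. The FVB difference was −1.80 ± 0.56 and missed the threshold (adjusted p = 0.061), which it passed without the failed array (adjusted p = 0.029). For 1420210_at the difference was 1.75 for B6129SF2/J, 1.68 for B2KO and 1.37 for FVB (adjusted p = 0.000696, 0.00337 and 0.0294). The FVB difference no longer passed without treated FVB replicate 10 or without untreated C57BL/6 replicate 1, 2, 3 or 4, with an adjusted p of up to 0.0643.

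**Figure D4:**
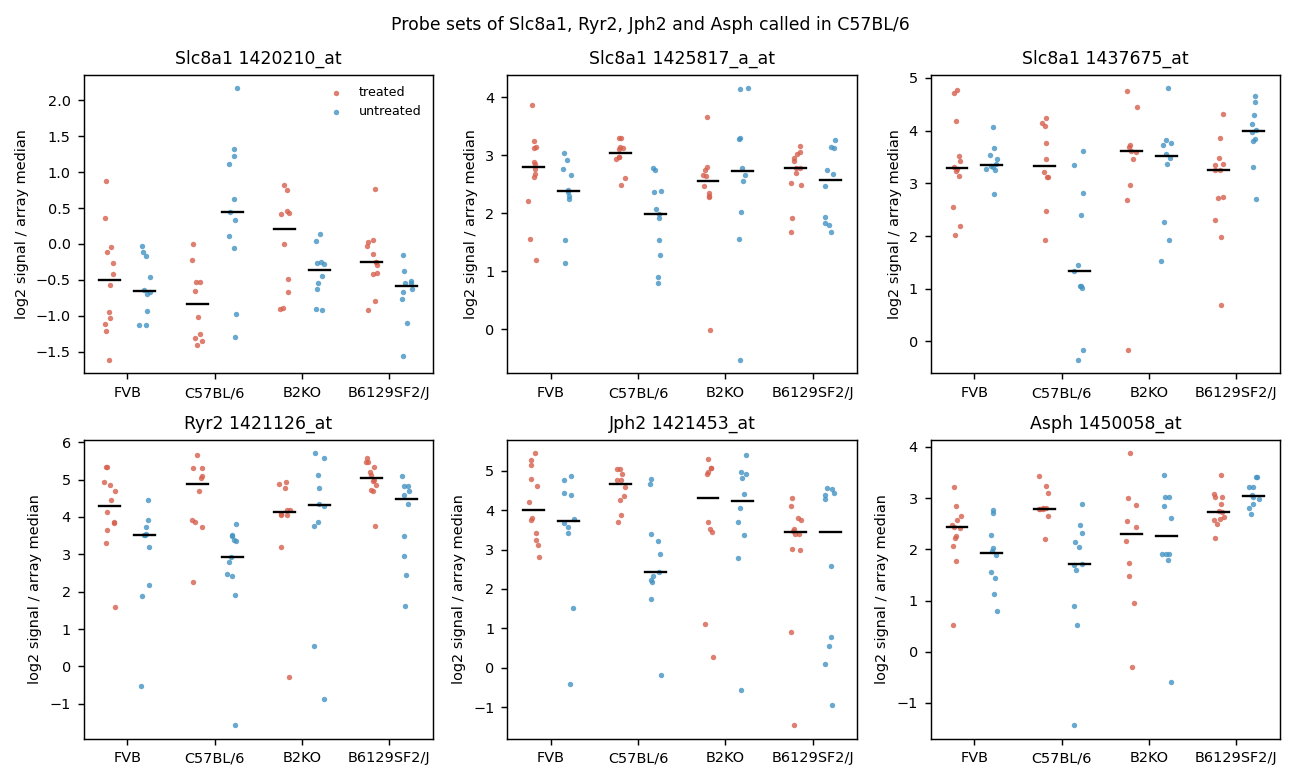
Levels of the Slc8a1, Ryr2, Jph2 and Asph probe sets that passed in C57BL/6, as log2 signal over the array median, in treated (red) and untreated (blue) hearts of each line, with 1 point per array and a bar at the group median. For Slc8a1 1437675_at the treated C57BL/6 median is 3.33 and the untreated one is 1.33, while the treated and untreated medians of FVB are 3.29 and 3.35.

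Asph 1450058_at also differed in its change, by −1.61 ± 0.48 for B6129SF2/J minus C57BL/6 (adjusted p = 0.0188) and by −1.44 ± 0.49 for B2KO minus C57BL/6 (adjusted p = 0.0436). The B2KO difference was −1.17 without the failed array (adjusted p = 0.107), and leaving out any of 21 arrays ended that call. In all, 5 of 34 member probe sets differed between B6129SF2/J and C57BL/6 in their change, against 10.2% of all tested probe sets. The counts were 3 for B2KO minus C57BL/6, against 10.9%, and 1 for FVB minus C57BL/6, against 2.48%. Without the failed array they were 7, 2 and 2, against 14.4%, 6.79% and 4.69%, and Atp2a2 1416551_at then passed for B6129SF2/J minus C57BL/6, at −0.73 (adjusted p = 0.0363).

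Between FVB, B2KO and B6129SF2/J no member change differed by limma's test. Background shares were 0% for B2KO minus FVB, 0.0281% for B6129SF2/J minus FVB and 0.1% for B6129SF2/J minus B2KO. At an unadjusted p under 0.05 these comparisons held 1, 0 and 2 members, with no background share counted at that threshold.

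The untreated hearts of the lines also differed, and C57BL/6 took part in most of these differences. At 1437675_at of Slc8a1 the untreated level was higher by 1.81 ± 0.40 in FVB than in C57BL/6 (adjusted p = 0.000593) and by 2.33 ± 0.40 in B6129SF2/J than in C57BL/6 (adjusted p = 1.96e-05). The untreated C57BL/6 arrays enter both these differences and the treatment changes of that line. A probe over a strain polymorphism can also read low with no difference in RNA, which was not tested.

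Untreated B6129SF2/J hearts read higher than untreated C57BL/6 hearts at Atp2a2 1416551_at, with levels of 10.89, 11.17 and 11.57, against 9.76, 10.11 and 11.26. The difference was 0.87 ± 0.20 (adjusted p = 0.00129). Pln was higher as well, by 0.76 ± 0.19 at 1460332_at (adjusted p = 0.00252) and by 0.96 ± 0.28 at 1450952_at (adjusted p = 0.0142), and after quantile normalization the first of these was 0.19 with an adjusted p of 0.0874. The same normalization gave 0.26 for Atp2a2 1416551_at and 0.44 for Pln 1450952_at, which both passed (adjusted p = 0.0216 and 0.027). Of the 6 Trdn probe sets, 2 passed as lower in untreated B6129SF2/J hearts. The difference was −1.05 ± 0.23 at 1426134_at and −0.86 ± 0.22 at 1451940_x_at (adjusted p = 0.000927 and 0.00488). The brightest, 1451801_at, had means of 7.88 in untreated B6129SF2/J and 7.91 in untreated C57BL/6 hearts. At 1426143_at these means were 3.90 and 4.16.

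In all, 10 of 34 member probe sets differed between untreated B6129SF2/J and C57BL/6 hearts, against 11.2% of all tested probe sets. The count was 5 for FVB minus C57BL/6, against 14.5%, and 2 for B6129SF2/J minus FVB, against 7.26%. For B2KO minus FVB it was 0, against 0.0402%, with 2 members at an unadjusted p under 0.05, for which no background share was counted. Without the failed array these 4 counts were 14, 8, 9 and 0, against 16.1%, 18.6%, 10.8% and 0.0884%. Casq2 then passed as lower in FVB than in C57BL/6 by 0.60 and as higher in B6129SF2/J than in FVB by 0.63 (adjusted p = 0.0124 and 0.0148).

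Ordered by the median of Atp2a2 1416551_at, the groups ran from untreated B6129SF2/J (11.17) through treated B6129SF2/J (10.97), treated C57BL/6 (10.94), untreated FVB (10.74), treated FVB (10.69), treated B2KO (10.65) and untreated B2KO (10.56) to untreated C57BL/6 (10.11). Neighbours in this order overlapped in range, and among the tests run only untreated C57BL/6 was below another group. For Trdn 1426143_at the order ran from untreated C57BL/6 (4.38) through untreated B6129SF2/J (3.91), untreated FVB (3.15) and untreated B2KO (2.91) to treated C57BL/6 (2.67), treated B6129SF2/J (2.47), treated B2KO (1.87) and treated FVB (1.43). Every untreated median thus stood above every treated one at this probe set.

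Of 48 other genes of calcium handling, listed from general knowledge, 36 had a tested probe set, and each was read by its brightest. In C57BL/6 hearts 7 of the 36 rose and 3 fell, where 23.2% of all tested probe sets passed in either direction. In FVB 1 fell, in B2KO 1 fell and in B6129SF2/J 2 fell, against 1.14%, 0.848% and 5.06% of all tested probe sets. The median change of the 36 was 0.20 in C57BL/6, −0.05 in FVB, −0.39 in B2KO and −0.09 in B6129SF2/J. Over all tested probe sets the medians were 0.08, −0.01, −0.23 and −0.01 in the same order. The B2KO values include the failed array.

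Casq1, the skeletal muscle calsequestrin, fell by 1.39 ± 0.34 in C57BL/6, by 1.31 ± 0.34 in B2KO and by 1.77 ± 0.33 in B6129SF2/J (adjusted p = 0.00133, 0.0412 and 0.000166), with a change of −0.67 ± 0.33 in FVB (adjusted p = 0.44). The sum over the skeletal muscle markers given above, which was carried by Acta1 alone of that list, had a lower median in treated than in untreated hearts of every line. In FVB these medians were 140.2 in treated and 546.5 in untreated hearts. The part of skeletal muscle signal in the Casq1 change was not tested. Jph1, the junctophilin first known from skeletal muscle, fell in FVB by 0.85 ± 0.22 at 1438428_at (adjusted p = 0.0212). Its probe set 1421520_at did not pass there, at −0.27 ± 0.29 (adjusted p = 0.836). Orai1, a store-operated calcium channel, rose by 1.48 ± 0.28 in C57BL/6 and fell by 1.03 ± 0.27 in B6129SF2/J at 1424990_at (adjusted p = 4.75e-05 and 0.0108). Its probe set 1424989_at did not rise in C57BL/6, at −0.32 ± 0.31 (adjusted p = 0.488).

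Over 84 arrays without the failed one, the probe sets most like Atp2a2 1416551_at by Pearson's r were those of Tnnt2 (r = 0.97), Myl2 (0.97) and Mdh1 (0.96). For Pln 1460332_at they were those of Myl2 (0.95), Cox6b1 (0.95) and Atp5g3 (0.95), and for Ryr2 1450123_at those of Mrpl42 (0.88), Cycs (0.86) and Etfa (0.85). Tnnt2 and Myl2 encode sarcomere proteins, and most of the rest encode mitochondrial proteins. The arrays share scale and RNA quality, and the values are a description.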

How the data were processed

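RNA from mouse hearts was read on 86 arrays. Per the labels' protocols, 10 µg of total RNA was made into biotinylated cRNA and mice were assigned to treatment at random. The authors made the deposited intensity values with GCRMA, whose version the submitters' processing notes do not state. Other upstream steps are not given in the sources used here. Every array's deposited values had a median of 1. They were read as linear, which the notes do not state, and log2 was taken. The precision is limited by the number of arrays, and p-values measure the spread between arrays.

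Probe sets were assigned by the platform's annotation: 34945 had 1 symbol, 932 several and 9160 none, and 64 were controls. All probe sets of the 10 genes are reported, each apart. The members and the lists of other calcium genes and cell type markers were chosen with earlier results of these data known. Replicates 4 and 9 of treated B2KO correlated at 0.99999976, less apart than any other pair (next 0.982), and were averaged and counted as 1 array.

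Limma 3.58.1 in R 4.3.3 was fitted over 85 arrays with a mean for each of 8 groups, to probe sets whose highest group mean was above log2 0 (24885). Tests are two-sided, with Benjamini-Hochberg adjustment over these probe sets within each comparison and a threshold of 0.05. The fit was tested on simulated data. Arrays were set apart by a median correlation under 0.7, a Gapdh 3′ minus 5′ difference over 2, or a distance to their own strain background of at least 0.8 of that to the nearest other. FVB and B2KO were taken as 1 background. Alternatives covered scaling, filter, moderation, a replicate block, arrays left out, a Gapdh covariate, each line alone and 1 value a gene. The replicate numbers of the titles did not pair the arrays: over 39 pairs of the same number the correlation of deviations ran from −0.38 to 0.32, with 7 above 0.1.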

Additional observations from a re-analysis of the deposited data

Results flagged for a closer look

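In 190 groups of 4 to 10 arrays, the highest or lowest array was checked for a gap to its nearest neighbour that is large against the range of the group. Groups of 11 or 12 arrays, namely treated FVB, untreated C57BL/6 and treated B6129SF2/J, were not checked. A far array was found in 44, where chance gives about 1 in 20 groups.

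Treated B2KO replicate 10, the failed array, was the far one in 21 groups. Its levels there were for Atp2a2 3.98 at 1427250_at, 0.69 at 1427251_at, 1.25 at 1437797_at and 5.05 at 1452363_a_at. They were 4.94 and 5.47 at Pln 1423359_at and 1450952_at, −0.28 and 6.89 at Ryr2 1421126_at and 1450123_at, 2.66 at Casq2 1422529_s_at and −0.35 at Jph2 1455404_at. For Asph they were −0.28, 1.26 and 2.46 at 1420959_at, 1425274_at and 1426015_s_at, and for Camk2d 1.04, 0.35 and −0.44 at 1422659_at, 1427763_a_at and 1459457_at. For Slc8a1 they were −0.02, −0.15 and 0.32 at 1425817_a_at, 1437675_at and 1440201_at, and for Trdn 1.53 and 1.86 at 1426142_a_at and 1426144_x_at. Only at 1440201_at was this array the highest.

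Untreated B2KO replicate 8, with a Gapdh 3′ to 5′ difference of 7.31, was the far array in 9 groups. It was low at Jph2 1421453_at (−0.57) and 1455404_at (0.88), Camk2d 1422659_at (2.46), Pln 1423359_at (7.24), Atp2a2 1427250_at (7.03) and 1427251_at (0.97), and Asph 1450058_at (−0.59). It was high at Trdn 1451801_at (9.17) and Camk2d 1460630_at (3.36). Untreated FVB replicate 10, with a Gapdh difference of 2.06, was low at Ryr2 1421126_at (−0.51), Pln 1423359_at (9.06) and Camk2d 1427763_a_at (1.72), and high at Trdn 1426142_a_at (9.05) and Camk2d 1444031_at (2.04).

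The other far values were spread over 5 arrays. Treated C57BL/6 replicate 7 was low at Atp2a2 1416551_at (10.41), Camk2d 1439168_at (−0.43) and Ryr2 1450123_at (8.86). Treated C57BL/6 replicate 8 was high at Trdn 1426142_a_at (6.96) and low at Atp2a2 1427251_at (4.73). Untreated B6129SF2/J replicate 1 was high at Trdn 1426134_at (6.96) and 1451940_x_at (7.00). Untreated B2KO replicate 1 was high at Trdn 1426142_a_at (8.86), and untreated FVB replicate 2 was low at Trdn 1451801_at (6.37).

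Between lines, 9 changes after isoproterenol differed by limma's test of the difference. For Slc8a1 1420210_at the differences from C57BL/6 were 1.37 in FVB, 1.68 in B2KO and 1.75 in B6129SF2/J. For Slc8a1 1437675_at they were −1.70 in B2KO and −2.74 in B6129SF2/J, and for Asph 1450058_at −1.44 in B2KO and −1.61 in B6129SF2/J. In B6129SF2/J Camk2d 1422659_at differed by 1.34 and Trdn 1426134_at by 1.14.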

How the results depend on the processing

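Of 649 recomputed single calls, 622 stayed on the same side of the threshold, 27 missed it and none changed sign. The C57BL/6 count (16) stayed within 14 to 21 and the count for the mean of the lines (13) within 12 to 18. In FVB the count (1) was 2 after quantile normalization, with centred arrays, without the failed array and without 8 arrays, and 0 with the line fitted alone. In B2KO the count (1) was 2 with the stricter filter and with the duplicates kept apart, and 0 with centred arrays, without the failed array, without 8 arrays and with the line alone. In B6129SF2/J the count (1) was 4 after quantile normalization and without the failed array, 5 with centred arrays and without 3 or 8 arrays, 2 with trend and robust moderation and with the Gapdh covariate, and 10 with the line alone. Differences between lines (9), summed over all pairs of lines, were 14 after quantile normalization, 15 with centred arrays and 19 without 8 arrays. Differences between untreated lines (17), summed over the comparisons of untreated lines, were 31 without the failed array, without 3 and without 8 arrays. In both sums a probe set can count more than once. The counts in this section stand without the share of all tested probe sets in each fit. With the mean of a gene's probe sets, B2KO had 1 gene (0 by the brightest probe set), the mean of the lines 4 (2) and the differences 0 (3). With other Atp2a2 probe sets the shift of Pln minus Atp2a2 was 0.29 and 0.31 in FVB (1437797_at and 1443551_at). In the order 1427250_at, 1427251_at, 1437797_at, 1443551_at and 1452363_a_at it was 0.22, 0.98, 0.85, 0.90 and 0.13 in C57BL/6 and 0.68, 0.45, 1.05, 0.82 and 0.53 in B2KO. In B6129SF2/J it was −0.29, 0.18 and −0.58 at 1427250_at, 1437797_at and 1443551_at. Leaving out single arrays gave 1 to 1 calls in FVB, 15 to 17 in C57BL/6, 0 to 4 in B2KO (4 without treated replicate 5), 1 to 2 in B6129SF2/J, 13 to 15 in the mean of the lines, 6 to 14 differences (14 without untreated B2KO replicate 8) and 15 to 31 differences between untreated lines (31 without treated B2KO replicate 10). With the replicate block, through a consensus correlation of 0.0022, the counts were 1 in FVB, 16 in C57BL/6, 1 in B2KO and 1 in B6129SF2/J, and it moved no count of calls by over 1.5 times. The cause of these shifts was not tested. Probe sets near the array median, such as Slc8a1 1420210_at, are read with little signal over background.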
